A study of Mus musculus with 7 samples.

Results

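Collagens are secreted or membrane-bound proteins of the extracellular matrix, and each is built from chains encoded by separate genes. The collagen chain genes were taken as every row whose symbol has the form Col, a number, a and a number, which gave 40 of the 21121 genes listed. Of these, 8 encode chains of basement membranes (Col4a1 to Col4a6, Col15a1 and Col18a1) and 32 encode fibrillar and other chains. They were followed in lung epithelial cells of C57BL/6 mice at 5 stages of development: embryonic days E13.5, E15.5 and E18.5 and postnatal days P14 and P56. Cells were sorted alive on the epithelial surface protein Epcam, after removal of cells with CD31, CD45, Ter119 or CD146, proteins of blood and vessel cells. Stages E13.5, E15.5 and P14 have 1 library each, and E18.5 and P56 have 2 each, so there are 7 libraries in all. No genotype or treatment differs between the stages, and nothing in the labels tells whether the replicate libraries are of separate mice. P-values therefore measure only the spread between these samples, which may be technical.

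A collagen molecule is a triple helix of 3 chains. Type IV chains join into the sheet-like network of the basement membrane, on which epithelial cells rest. The Col4a1 and Col4a2 chains form the network found in nearly all basement membranes, while Col4a3, Col4a4 and Col4a5 form a second network known from kidney glomerulus and lung alveolus. Types XV and XVIII are multiplexins, basement membrane collagens that carry heparan or chondroitin sulphate chains, and the end of the type XVIII chain is released as endostatin. Fibrillar collagens (types I, II, III, V, XI, XXIV and XXVII among those measured) form the banded fibres of connective tissue and cartilage and are known mainly from fibroblasts and chondrocytes.

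RNA was read by 3' SAGE sequencing, which counts 1 tag for each polyadenylated transcript, close to its 3' end, so that long transcripts give no more tags than short ones. Values are tag counts divided by a factor per library, given here as units, with 1 read worth 0.236 to 0.385 units. Depth lay between 2559927 and 3895740 reads per library. The tag of a gene may be captured better than that of another, so levels were compared within a gene. All 7 epithelial markers listed had reads in every library, with a sum of 2355 to 10902 units. Immune markers summed to 0 to 31.9 units, basal cell markers to 0.550 to 12.1 units and mesothelial markers to 4.49 to 735 units, where the highest sum was nearly all Msln. Of the endothelial markers, Pecam1, which encodes the CD31 used to remove vessel cells, lay between 0 and 0.945 units, Cdh5 between 0 and 1.08, and Emcn, Plvap and Vwf were each at 0 in at least 4 libraries. The endothelial sum lay between 34.0 and 245 units, of which Esam had 11.1 to 241 units, Kdr 0.275 to 12.2 and Tie1 0 to 12.5, with Tie1 highest at E13.5 and E15.5 and at 0 in both E18.5 libraries.

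The 6 type IV genes lie head to head in 3 pairs, each pair read outward from a shared start region, in the GRCm38/mm10 annotation. Col4a1 (chr8:11198423-11312826, minus strand) and Col4a2 (chr8:11312805-11449287, plus strand) have annotated starts that overlap by 22 bases. Col4a4 (chr1:82448423-82586849, minus strand) and Col4a3 (chr1:82586921-82722059, plus strand) are 71 bases apart. Col4a6 (chrX:141165403-141474076, minus strand) and Col4a5 (chrX:141475385-141689234, plus strand) are 1308 bases apart. The members of each pair are set against each other in the values that follow, so the sequences from which they start are shown. They were taken from the RefSeq table for GRCm38.p6: all 71 bases between Col4a4 and Col4a3, on the Col4a4 strand (chr1:82586850-82586920), the 216 bases before Col4a5 (chrX:141475169-141475384, plus strand) and the 250 bases before Col4a6 (chrX:141474077-141474326, minus strand). Capitals mark a GC box (GGGCGG) or a CCAAT box (CCAAT), searched on both strands.
Col4a4 to Col4a3: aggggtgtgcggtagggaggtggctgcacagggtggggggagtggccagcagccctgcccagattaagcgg
Col4a5: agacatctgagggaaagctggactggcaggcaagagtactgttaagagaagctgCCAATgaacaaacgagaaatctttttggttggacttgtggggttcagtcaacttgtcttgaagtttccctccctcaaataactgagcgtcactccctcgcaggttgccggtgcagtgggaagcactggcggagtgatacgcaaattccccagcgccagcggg
Col4a6: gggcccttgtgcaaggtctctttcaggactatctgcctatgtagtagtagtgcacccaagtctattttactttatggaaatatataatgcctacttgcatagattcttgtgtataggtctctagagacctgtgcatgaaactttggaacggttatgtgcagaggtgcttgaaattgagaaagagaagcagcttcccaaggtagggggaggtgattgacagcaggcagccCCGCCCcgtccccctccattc

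The 71 bases between Col4a4 and Col4a3 are 69.0% G and C and held no match to a GC box, a CCAAT box or a TATA box (TATAAA). Among 27025 promoter windows trimmed to the same length, 21.2% held a GC box, 13.9% a CCAAT box and 4.72% a TATA box. The Col4a5 sequence held 1 CCAAT box, as did 31.5% of windows of its length, and the Col4a6 sequence held 1 GC box, as did 32.9% of windows of its length. A promoter window was found for 31 of the 40 collagen genes. A TATA box was found in 0 of 7 windows of basement membrane chains and in 4 of 24 windows of the other chains. A GC box was found in 4 of 7 and 15 of 24, and a CCAAT box in 4 of 7 and 6 of 24. Of all 27025 windows of 250 bases, 13.0% held a TATA box, 32.9% a GC box and 34.5% a CCAAT box. These matches describe letters in the windows only.

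Basement membrane chains held most of the collagen reads at every stage. Their summed share of all reads was 0.272% at E13.5, 0.387% at E15.5, then 0.430% and 0.470% in the E18.5 libraries, 0.599% at P14, and 0.140% and 0.166% in the P56 libraries. It was highest at P14 and lowest in the P56 libraries, and the 2 libraries of E18.5 and of P56 lay close together. The 32 other chains held 0.0505% at E13.5, 0.0409% at E15.5, then 0.0341% and 0.0354% in the E18.5 libraries, 0.0235% at P14, and 0.0172% and 0.0149% in the P56 libraries, so their sum was lower in each postnatal library than in each embryonic one. Basement membrane chains accounted for 96.2% of collagen reads at P14 and for 84.4% at E13.5, with the other libraries in between. In a sorted population, fewer cells of a type and less RNA per cell cannot be told apart.

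**Figure D1:**
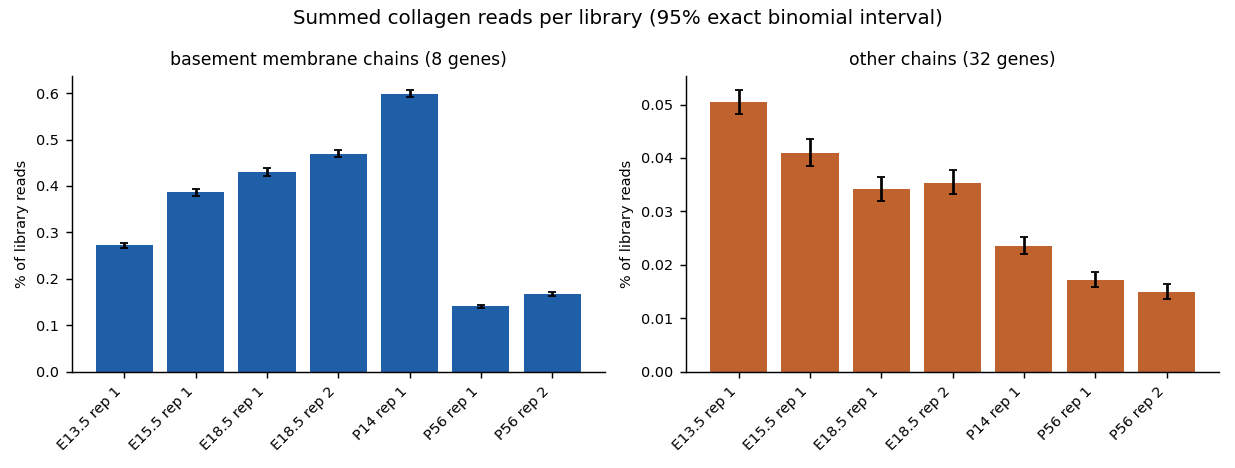
Summed reads of the 8 basement membrane chains (left) and the 32 other chains (right) as a percentage of all reads of each library, with 95% exact binomial intervals that cover counting error only. The basement membrane sum is highest at P14 (0.599%) and lowest at P56 (0.140% and 0.166%), while the sum of the other chains is highest at E13.5 (0.0505%).

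The chains that made up the basement membrane sum differed between early and later stages. At E13.5 and E15.5 the multiplexins Col15a1 and Col18a1 held 52.2% and 53.5% of collagen reads, and Col4a1 with Col4a2 held 30.5% and 34.4%. From E18.5 on, Col4a1 and Col4a2 held 84.5% and 85.4% at E18.5, 89.3% at P14, then 84.9% and 88.0% at P56, and the multiplexins held at most 3.09%. Fibrillar chains held 0.888% to 2.24% from E18.5 on, against 14.4% at E13.5 and 7.53% at E15.5.

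Changes were tested with limma on log2(value + 1) over all 12964 genes that passed a filter on low counts, with all 7 libraries in a single fit, and calls were made where the adjusted p (Benjamini-Hochberg) was under 0.05. The filter passed 28 of the 40 collagen genes, all 8 basement membrane chains and 20 of the 32 others. In E18.5 against E13.5 and E15.5, 8 collagen genes were higher and 8 lower, where 15.8% of all genes tested were called higher and 13.4% lower. The 8 higher were Col4a1, Col4a2, Col4a3, Col4a4, Col6a1, Col6a2, Col6a3 and Col23a1. The 8 lower were Col18a1 and the fibrillar and fibril-associated chains Col2a1, Col5a1, Col9a1, Col9a3, Col11a1, Col11a2 and Col27a1. The median log2 change was 1.30 over the basement membrane chains, 0.23 over the other chains tested and 0.03 over all genes tested. The early stages differ from each other too. Against E13.5 alone the counts were 11 and 7, beside 2045 and 1676 of all genes tested. Against E15.5 alone they were 7 and 7, beside 785 and 581 of all genes tested.

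In P56 against E18.5, 2 collagen genes were higher and 14 lower, where 8.07% of all genes were called higher and 6.15% lower. All 8 basement membrane chains were among the lower ones, with Col1a1, Col1a2, Col3a1, Col6a2, Col6a3 and Col13a1, and the 2 higher ones were Col7a1 and Col12a1. The median log2 change was -2.52 over the basement membrane chains, -0.56 over the other chains tested and 0.06 over all genes. With no filter on low values the same fit called 0 collagen genes higher and 5 lower, beside 355 and 324 of all 21121 genes. With edgeR on the recovered reads 3 were higher and 15 lower, beside 1074 and 1023 of the 12964 genes tested.

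In P14 against E18.5, Col7a1 was called higher and Col15a1 and Col6a2 lower, against 1.87% and 1.24% of all genes. In P56 against P14, 0 collagen genes were called higher and 6 lower, all 6 type IV chains, where 0.123% of all genes were called higher and 0.694% lower. The median log2 change there was -2.41 over the basement membrane chains and -0.09 over the other chains tested. At an unadjusted p under 0.05 limma had 1 collagen gene higher and 11 lower there, beside 647 and 693 of the 12964 genes tested. In the same comparison edgeR called 0 collagen genes higher and 7 lower, beside 74 and 193 of all genes tested. These calls rest on a single P14 library whose spread was taken to equal that of E18.5 and P56. Without robust variance estimates no collagen gene was called in either of these comparisons. Of all genes tested, that fit called 3 higher and 3 lower in P14 against E18.5, and 0 in P56 against P14.

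**Figure D2:**
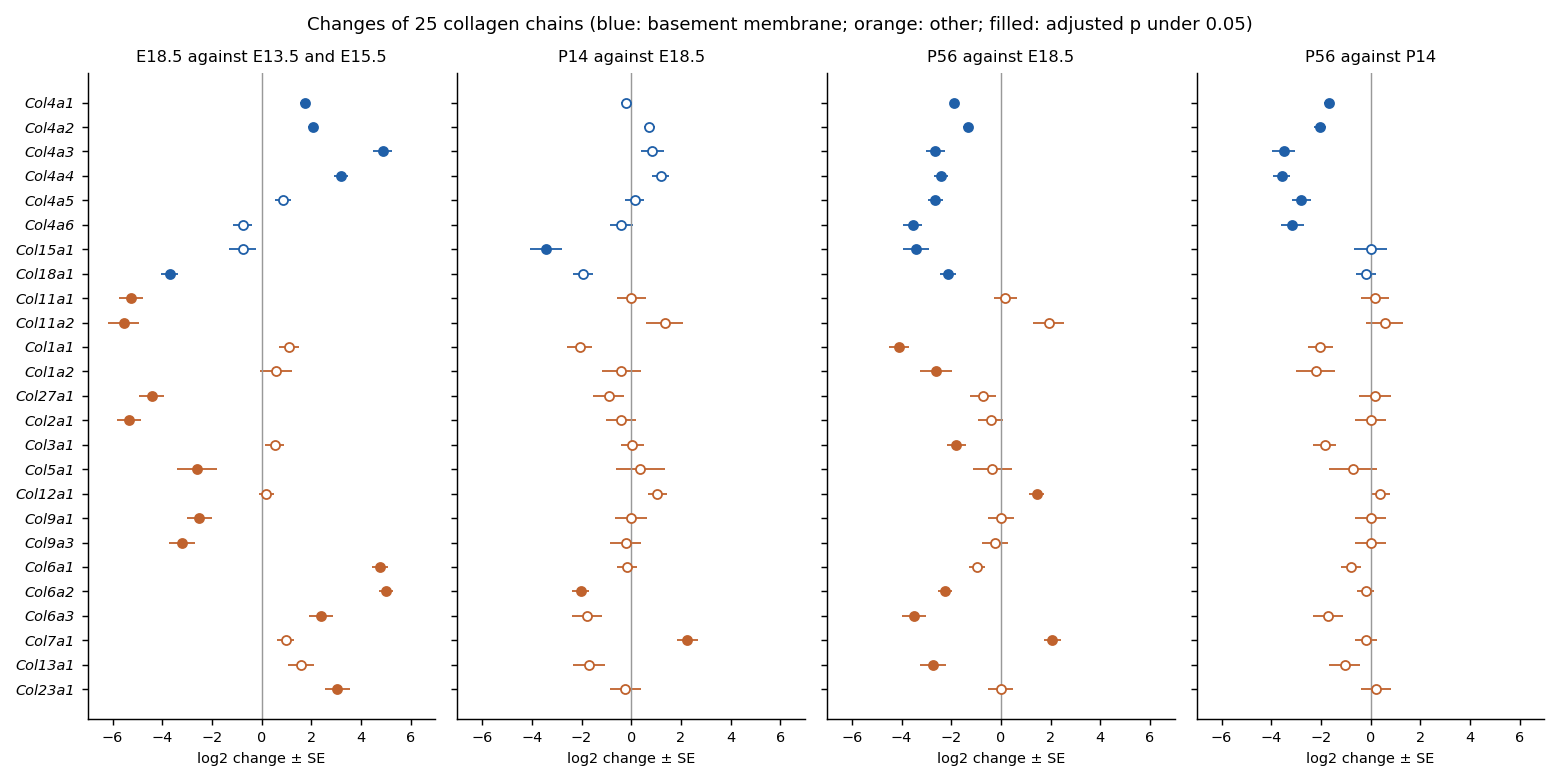
Log2 change with its standard error for the 25 collagen genes called in at least 1 tested comparison, one panel per comparison, with basement membrane chains in blue and other chains in orange. Filled points passed an adjusted p of 0.05. In P56 against E18.5 all 8 blue points are filled and lie between -3.56 and -1.31, and in P56 against P14 the 6 filled points are the type IV chains.

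Col4a2 and Col4a1 encode the chains of the common type IV network. Col4a2 had 519 units at E13.5, 802 at E15.5, then 2481 and 2956 in the E18.5 libraries, 4501 at P14, and 966 and 1228 in the P56 libraries. Col4a1 had 389 units at E13.5, 550.1 at E15.5, then 1477 and 1609.5 in the E18.5 libraries, 1338 at P14, and 399 and 439 in the P56 libraries. Both E18.5 libraries lay above both early libraries and both P56 libraries for each gene. Col4a2 rose in E18.5 against the early stages (log2 change 2.07 ± 0.19 SE, adjusted p = 0.000426) and fell in P56 against E18.5 (log2 change -1.31 ± 0.19, adjusted p = 0.00547). Its mean was 1097 ± 186 units at P56 and 2719 ± 337 at E18.5 (SD, n = 2 each), 2.50-fold lower at P56. Col4a1 rose by a log2 change of 1.74 ± 0.17 in E18.5 against the early stages (adjusted p = 0.000504) and fell in P56 against E18.5 with a log2 change of -1.88 ± 0.17 (adjusted p = 0.000678). Against P14, P56 was lower in both, with log2 changes of -2.05 ± 0.24 for Col4a2 (adjusted p = 0.0133) and -1.67 ± 0.21 for Col4a1 (adjusted p = 0.0172).

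The share of each chain in this pair differed between stages. Col4a1 made up 42.8% of the pair's reads at E13.5 (95% exact binomial interval 41.3 to 44.4%), 40.7% at E15.5, then 37.3% and 35.3% in the E18.5 libraries, 22.9% at P14 (22.3 to 23.5%) and 29.3% and 26.3% at P56. The intervals at P14 and P56 lie below those at every embryonic stage, and they cover counting error only. An antisense transcript is annotated over the last 2000 bases of Col4a1, and since it is not known whether tags were counted by strand, reads of both cannot be told apart. The same limit holds for Col4a3, Col9a3 and Col18a1, which have a gene on the opposite strand there.

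Alveolar type 1 cells, the flat cells of the air-blood barrier, have markers whose sum was 66.4 units at E13.5, 704 at E15.5, then 7258 and 8119 in the E18.5 libraries, 6807 at P14, and 3303 and 3787 in the P56 libraries. All 10 were called higher in E18.5 against the early stages and 9 of 10 lower in P56 against E18.5. The exception, Aqp5, held 2545 and 3000 units of the P56 sums, against 1931 and 2181 units at E18.5. Markers of alveolar type 2 cells, which make surfactant, summed to 247 units at E13.5, 2311 at E15.5, then 10681 and 10370.4 in the E18.5 libraries, 37319 at P14, and 48859 and 54847 in the P56 libraries. In E18.5 against the early stages 9 of these 10 were higher and 1 lower, and in P56 against E18.5 9 of 10 were higher. Over all genes tested, 15.8% were higher and 13.4% lower in the first comparison, and 8.07% and 6.15% in the second. The part of cell type shares in the type IV changes was not tested.

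**Figure D3:**
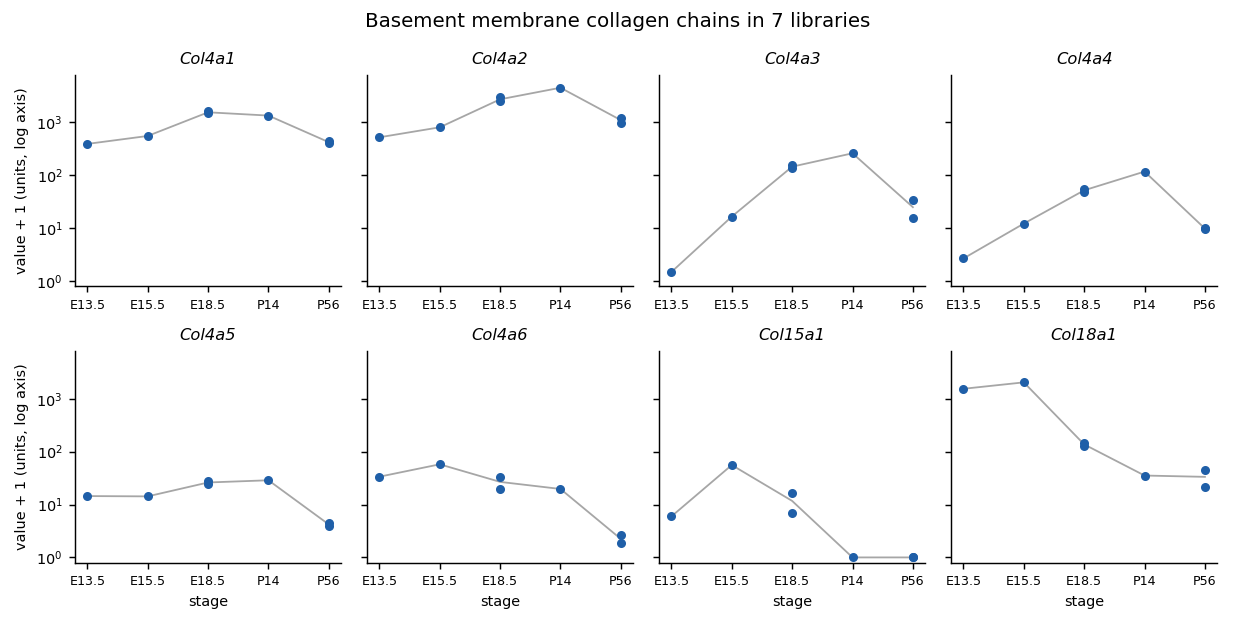
Value plus 1, in units on a log axis, of the 8 basement membrane chains at the 5 stages, with a point per library and a line through the stage means. The 4 chains Col4a1 to Col4a4 are highest at E18.5 or P14, and Col18a1 is at 129 and 143 units at E18.5, against 2047 units at E15.5.

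Col4a3 and Col4a4, chains of the second network, had few reads at E13.5. Col4a3 had 0.473 units at E13.5, which is 2 reads, 15.4 at E15.5, then 135 and 152 in the E18.5 libraries, 258 at P14, and 33.0 and 14.6 in the P56 libraries. Col4a4 had 1.65 units at E13.5, 11.1 at E15.5, then 53.5 and 47.8 in the E18.5 libraries, 116 at P14, and 9.11 and 8.42 in the P56 libraries. Both genes were highest at P14, and the P56 libraries lay below both E18.5 libraries. In E18.5 against the early stages the log2 change was 4.88 ± 0.38 for Col4a3 (adjusted p = 0.000212) and 3.19 ± 0.28 for Col4a4 (adjusted p = 0.00031). Both fell in P56 against E18.5, Col4a3 with a log2 change of -2.65 ± 0.38 (adjusted p = 0.00505) and Col4a4 with -2.40 ± 0.28 (adjusted p = 0.00195). The means were 23.8 ± 13.0 units at P56 and 144 ± 12.1 at E18.5 for Col4a3, and 8.76 ± 0.485 at P56 and 50.7 ± 4.01 at E18.5 for Col4a4 (SD, n = 2 each). Against P14, P56 was 10.6-fold lower for Col4a3 and 13.2-fold lower for Col4a4. Col4a3 made up 69.0% of the reads of the pair at P14 and between 63.4% and 78.4% in the libraries of E18.5 and P56.

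Col4a5, the third chain of that network, and Col4a6, which assembles with it in the basement membranes of skin and smooth muscle, had at most 27.8 and 56.7 units. Col4a5 had 13.5 units at E13.5, 13.3 at E15.5, then 27.3 and 23.0 in the E18.5 libraries, 27.8 at P14, and 2.85 and 3.56 in the P56 libraries. Col4a6 had 32.6 units at E13.5, 56.7 at E15.5, then 18.9 and 32.8 in the E18.5 libraries, 18.7 at P14, and 0.854 and 1.62 in the P56 libraries. Neither passed the test in E18.5 against the early stages. The P56 libraries of both genes lay below every other library. In P56 against E18.5 both fell, with log2 changes of -2.64 ± 0.31 for Col4a5 (adjusted p = 0.00228) and -3.56 ± 0.38 for Col4a6 (adjusted p = 0.00142). Col4a5 made up 29.2% and 19.0% of the pair's reads at E13.5 and E15.5, 59.2% and 41.2% at E18.5 and 59.8% at P14. At P56 its shares of 76.9% and 68.8% rest on 13 and 16 reads, with intervals of 46.2 to 95% and 41.3 to 89.0%.

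**Figure D4:**
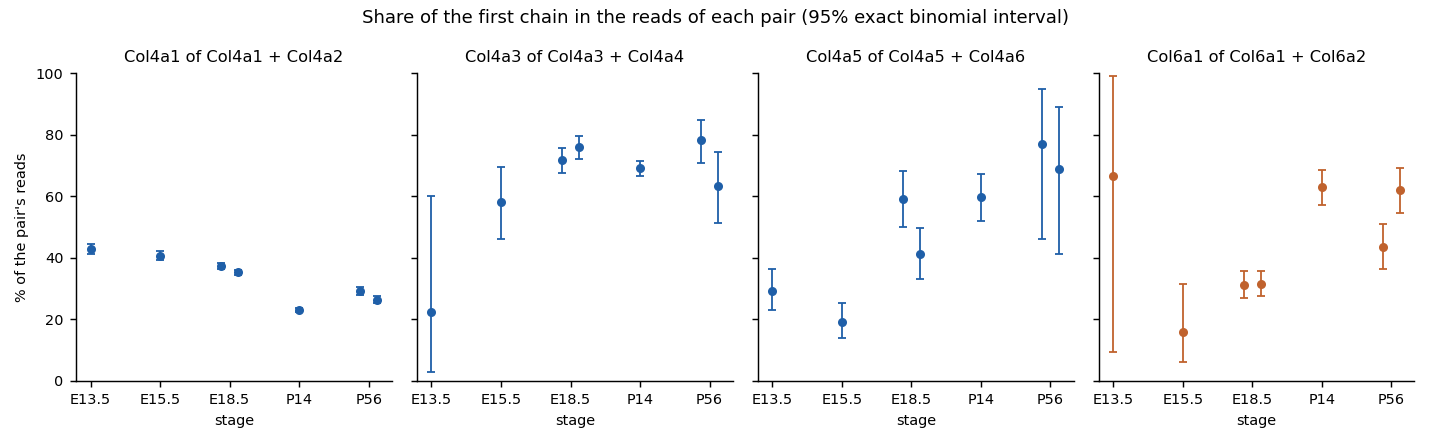
Share of the first-named chain in the summed reads of each of 4 pairs, by stage, with a point per library and 95% exact binomial intervals. The Col4a1 share is 22.9% at P14 and 42.8% at E13.5, and the Col6a1 share is 62.9% at P14 and 31.3% in each E18.5 library.

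The multiplexin Col18a1 (chr10:77052178-77166548, minus strand) was highest in the early libraries. It had 1547 units at E13.5, 2047 at E15.5, then 129 and 143 in the E18.5 libraries, 34.4 at P14, and 20.8 and 44 in the P56 libraries. The early libraries lay far above all later ones. Col18a1 fell in E18.5 against the early stages (log2 change -3.70 ± 0.33, adjusted p = 0.000358) and again in P56 against E18.5 (log2 change -2.13 ± 0.33, adjusted p = 0.00684). In P14 against E18.5 its log2 change was -1.95 ± 0.41 and missed the threshold (adjusted p = 0.053), while edgeR called it lower. Slc19a1, the gene opposite the last 2000 bases of Col18a1, had 0 to 5.44 units in the 7 libraries. Col15a1 had 4.96 units at E13.5, 54.9 at E15.5, then 15.4 and 6.03 in the E18.5 libraries, and 0 reads at P14 and in both P56 libraries. Against E18.5 it was at least 12.9-fold lower at P14 and at least 23.5-fold lower at P56, with a floor of 3 reads over the libraries of the stage at 0. The adjusted p was 0.0398 for P14 and 0.00672 for P56.

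Among the other chains, 6 genes of cartilage collagens had at most 8.42 units from E18.5 on and more in the early libraries. They are Col2a1, the main chain of cartilage fibrils, Col11a1 and Col11a2, minor chains of the same fibrils, Col27a1, a fibrillar chain of cartilage, and Col9a1 and Col9a3, chains attached to the surface of cartilage fibrils. Col2a1 (chr15:97975602-98004695, minus strand) had 195 units at E13.5, 13.6 at E15.5, then 0 and 0.754 in the E18.5 libraries and 0 in the 3 postnatal libraries. Col11a2 had 105 units at E13.5, 43.8 at E15.5, then 1.16 and 0 in the E18.5 libraries, 2.75 at P14, and 2.28 and 8.42 in the P56 libraries. Col11a1 had 46.6 units at E13.5, 29.4 at E15.5, 0 in both E18.5 libraries and at P14, and 0.285 and 0 at P56. In each of these genes both early libraries lay above all 5 later ones. Col27a1 had 48.0 units at E13.5, 31.9 at E15.5, then 1.54 and 0.377 in the E18.5 libraries, 0 at P14, and 0.285 and 0 in the P56 libraries. Col9a3 had 13.2 and 7.18 units at E13.5 and E15.5, 0 and 0.377 at E18.5 and 0 reads after birth, and Col9a1 had 4.02 and 5.38 units at E13.5 and E15.5 and 0 reads in all 5 later libraries.

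All 6 of these genes fell in E18.5 against the early stages. The log2 change was -5.34 ± 0.50 for Col2a1 (adjusted p = 0.000431), -5.55 ± 0.61 for Col11a2 (adjusted p = 0.000841) and -4.42 ± 0.51 for Col27a1 (adjusted p = 0.00101). Col11a1 was at least 69.6-fold lower and Col9a1 at least 7.98-fold lower, both with 0 reads at E18.5. Col2a1, with 2 reads at E18.5, was 323-fold lower with a 95% counting interval of 89.2 to 2673. Col9a3, with 1 read, was 56.9-fold lower with an interval of 9.90 to 2275. Col5a1, a chain that starts type I fibrils, had 11.6 and 16.9 units at E13.5 and E15.5, then 3.47 and 0.377 in the E18.5 libraries, 2.2 at P14, and 2.85 and 0 in the P56 libraries. Its fall in E18.5 against the early stages was close to the threshold (log2 change -2.60 ± 0.80, adjusted p = 0.0473), and it was lost under 6 alternative settings, a pseudocount of 0.5 among them.

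Of 9 cartilage marker symbols sought, 4 had a row. Acan, Matn1, Comp and Ucma had none, nor had Cnmd, another symbol of the gene listed here as Lect1. Hapln1, a link protein of cartilage matrix, had 13.7 units at E13.5, 7.89 at E15.5, then 2.70 and 0 in the E18.5 libraries and 0 after birth, and Lect1 had 4.02 and 1.79 units at E13.5 and E15.5 and 0 reads later. Matn4 had the other course, with 23.6 units at E13.5, 102 at E15.5, then 142 to 272 units from E18.5 on, and Matn3 lay between 0 and 1.79 units. Vim, a filament protein of mesenchyme, had 2564 units at E13.5 and 1193 at E15.5, with 40.5 to 138 from E18.5 on. Without Vim, the 22 other mesenchymal markers with a row summed to 49.9 units at E13.5 and 103 at E15.5. The part of other cell types in the early collagen values was not tested.

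**Figure D5:**
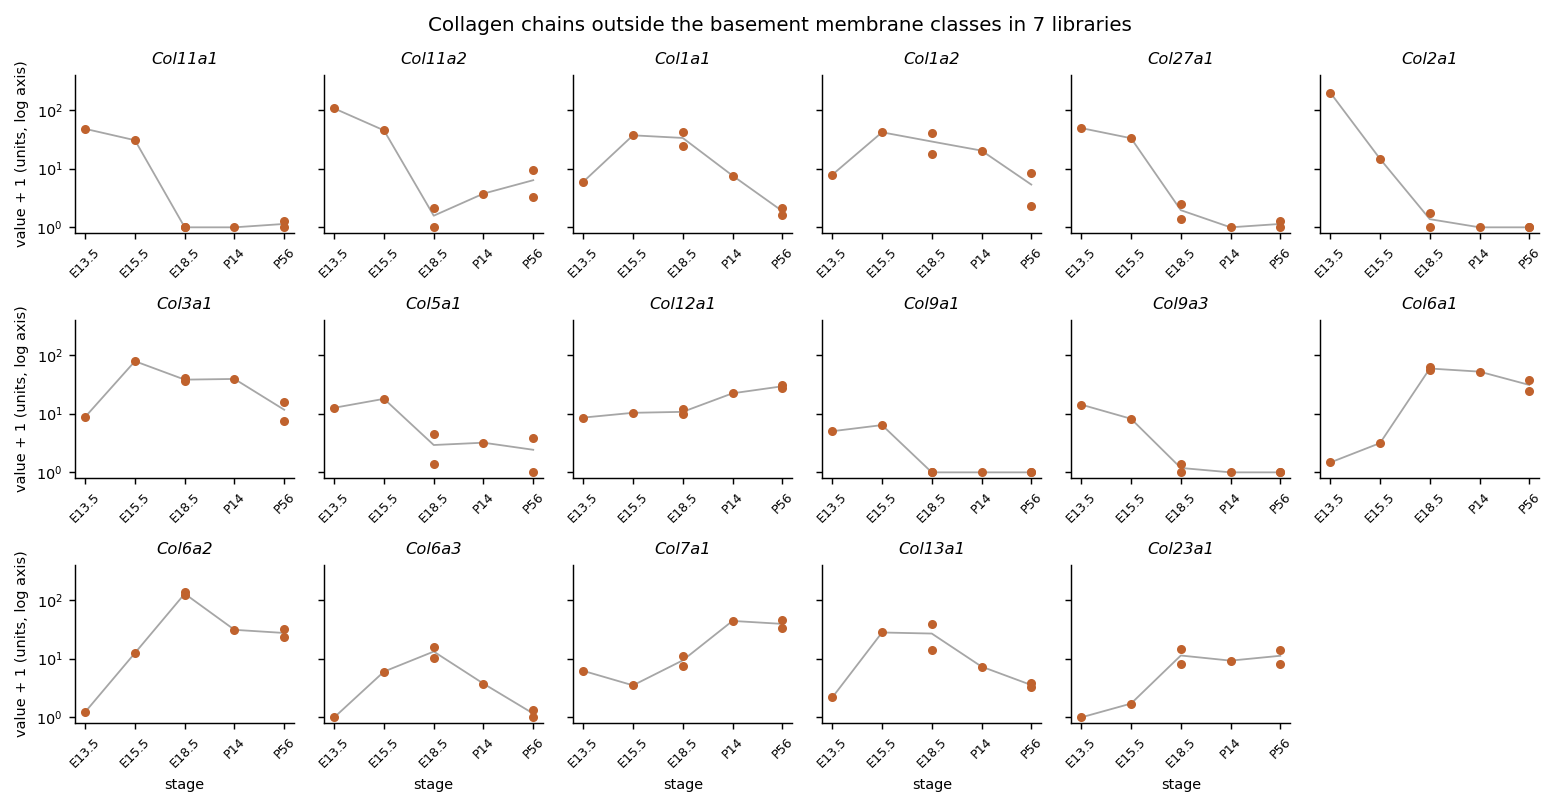
Value plus 1, in units on a log axis, of the 17 chains outside the basement membrane classes that were called in at least 1 comparison, with a point per library and a line through the stage means. Col2a1, Col11a1, Col27a1, Col9a1 and Col9a3 are at or near 0 from E18.5 on, while Col7a1 is highest at P14 and P56 (42.9, 43.8 and 32.4 units).

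The chains of types I and III, the main fibrillar collagens of connective tissue, followed another order. Col3a1 had 7.80 units at E13.5, 77.1 at E15.5, then 35.0 and 38.8 in the E18.5 libraries, 38.0 at P14, and 14.8 and 6.48 in the P56 libraries. Col1a1 had 4.96 units at E13.5, 35.9 at E15.5, then 23.1 and 41.4 in the E18.5 libraries, 6.60 at P14, and 1.14 and 0.648 in the P56 libraries. Col1a2 had 6.85 units at E13.5, 40.5 at E15.5, then 38.9 and 17.0 in the E18.5 libraries, 19.3 at P14, and 7.40 and 1.30 in the P56 libraries. All 3 were lower at E13.5 and at P56 than at E15.5 and E18.5. None of the 3 passed the test in E18.5 against the early stages, where Col1a1 had a log2 change of 1.11 ± 0.41 (adjusted p = 0.0823), although edgeR called it higher. In P56 against E18.5 all 3 fell, with log2 changes of -4.09 ± 0.41 for Col1a1 (adjusted p = 0.00112), -2.61 ± 0.65 for Col1a2 (adjusted p = 0.0374) and -1.80 ± 0.38 for Col3a1 (adjusted p = 0.022). The Col1a1 mean was 0.893 ± 0.347 units at P56 and 32.3 ± 13.0 at E18.5 (SD, n = 2 each). The share of Col1a1 in the reads of Col1a1 and Col1a2 differed between the 2 E18.5 libraries, 37.3% (29.8 to 45.2%) and 71.0% (63.1 to 78.0%), and these intervals do not overlap.

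Mesenchymal markers without Vim summed to 126 and 124 units at E18.5, 117 at P14, then 76.8 and 52.5 at P56. Dcn alone held 70.86 and 44.05 units of the P56 sums, against 6.16 and 0.377 units of the E18.5 sums. The other markers of this sum thus had few units left at P56. Of 9 mesenchymal markers tested, Vim among them, 6 were lower and 1, Dcn, higher in P56 against E18.5. Over all genes tested, 8.07% were called higher and 6.15% lower there. Mfap4, a microfibril protein gene, had 0.473 units at E13.5, 25.5 at E15.5, then 30.0 and 36.9 in the E18.5 libraries, 35.5 at P14, and 1.42 and 2.91 in the P56 libraries. Tcf21, a factor of lung mesenchyme, had 0 and 3.23 units at E13.5 and E15.5, then 13.5 and 8.67 in the E18.5 libraries, 4.95 at P14, and 0 and 0.648 in the P56 libraries. Both were among the 6 lower ones. Pdgfra lay between 0 and 0.473 units, Pdgfrb was at 0 in 6 of 7 libraries and Postn in 5 of 7. Eln, which encodes elastin, had 0.854 and 0.972 units at P56, against 43.9 and 55.8 at E18.5. The part of mesenchymal cells in the type I and III values was not tested.

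Type VI collagen forms beaded filaments that link basement membranes to the surrounding matrix. Col6a2 (chr10:76595762-76623630, minus strand) had 0.236 units at E13.5, 11.5 at E15.5, then 119 and 135 in the E18.5 libraries, 30.0 at P14, and 30.7 and 22.0 in the P56 libraries. Col6a1 (chr10:76708792-76726168, minus strand) had 0.473 units at E13.5, 2.15 at E15.5, then 53.9 and 61.4 in the E18.5 libraries, 50.9 at P14, and 23.6 and 36.0 in the P56 libraries. Col6a3 had 0 and 5.02 units at E13.5 and E15.5, then 15 and 9.42 in the E18.5 libraries, 2.75 at P14, and 0 and 0.324 in the P56 libraries. The E18.5 libraries were the highest for all 3 genes. All 3 rose in E18.5 against the early stages, with log2 changes of 5.02 ± 0.29 for Col6a2 (adjusted p = 5.17e-05), 4.76 ± 0.32 for Col6a1 (adjusted p = 0.000117) and 2.40 ± 0.49 for Col6a3 (adjusted p = 0.0111).

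Not every type VI chain was called after E18.5. Col6a2 fell in P14 against E18.5 (log2 change -2.04 ± 0.35, adjusted p = 0.031) and in P56 against E18.5 (log2 change -2.24 ± 0.29, adjusted p = 0.0032), and Col6a3 fell in P56 against E18.5 (log2 change -3.49 ± 0.49, adjusted p = 0.00472). Col6a1 was not called by limma in either comparison, while edgeR called it lower in P56 against E18.5, with means of 29.8 ± 8.72 units at P56 and 57.7 ± 5.31 at E18.5 (SD, n = 2 each). The share of Col6a1 in the reads of Col6a1 and Col6a2 was 31.3% in each E18.5 library, 62.9% at P14 (95% exact binomial interval 57.1 to 68.5%) and 43.5% and 62.0% at P56. Its intervals in the 3 postnatal libraries lie above those of the 2 E18.5 libraries. Msln, a mesothelial marker, had 549 and 733 units at E18.5 and at most 20.5 in the other libraries, while the mesothelial markers Wt1, Upk3b, Lrrn4 and Gpm6a were at 0 in both E18.5 libraries, Rspo1 had 0 and 0.377 units there and Upk1b 5.01 and 2.26 units. The part of other cell types in the type VI values was not tested.

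Col7a1 and Col12a1 were highest after birth. Col7a1 encodes the anchoring fibril that ties basement membranes to the tissue below, best known from skin. Col7a1 (chr9:108953586-108984875, plus strand) had 5.20 units at E13.5, 2.51 at E15.5, then 6.55 and 10.2 in the E18.5 libraries, 42.9 at P14, and 43.8 and 32.4 in the P56 libraries. The postnatal libraries all lay above the embryonic ones. Col7a1 rose in P14 against E18.5 (log2 change 2.26 ± 0.43, adjusted p = 0.0396) and in P56 against E18.5 (log2 change 2.07 ± 0.35, adjusted p = 0.00887), with means of 38.1 ± 8.09 units at P56 and 8.36 ± 2.57 at E18.5 (SD, n = 2 each). Col12a1, a chain attached to type I fibrils, had 7.56 units at E13.5, 9.33 at E15.5, then 10.8 and 8.67 in the E18.5 libraries, 21.2 at P14, and 29.9 and 26.6 in the P56 libraries. It rose in P56 against E18.5 (log2 change 1.45 ± 0.30, adjusted p = 0.0201), a call that edgeR lost without P56 replicate 1. Markers of airway basal cells summed to 4.84 and 3.24 units at P56, 0.550 at P14, and 8.09 and 12.1 at E18.5. Krt15 held 7.70 and 10.9 units of the E18.5 sums, and only 0 and 0.324 units of the P56 sums. Krt5 had 0 reads in E18.5 replicate 1, 1 read in replicate 2, then 4 and 6 in the P56 libraries. Ngfr went from 1 and 2 reads to 10 and 2, and Trp63 from 0 in each to 3 and 1. The sum thus follows Krt15 and not these markers, which had few reads. The part of basal cells in the Col7a1 values was not tested.

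The membrane-spanning chains Col13a1 and Col23a1 differed in when they appeared. Col13a1 had 1.18 units at E13.5, 26.9 at E15.5, then 13.1 and 38.4 in the E18.5 libraries, 6.33 at P14, and 2.85 and 2.27 in the P56 libraries. It fell in P56 against E18.5 (log2 change -2.73 ± 0.53, adjusted p = 0.0153). Col23a1 had 0 units at E13.5, 0.718 at E15.5, then 13.5 and 7.16 in the E18.5 libraries, 8.25 at P14, and 7.11 and 13.3 in the P56 libraries, and its postnatal values lay in or next to the E18.5 range. It rose in E18.5 against the early stages (log2 change 3.05 ± 0.50, adjusted p = 0.00437). With 2 early reads, the ratio was 36.1 with a 95% counting interval of 9.52 to 306. Col17a1, the membrane-spanning chain of hemidesmosomes, had 0 to 3.98 units and was called in no comparison by limma or edgeR. The same held for Col25a1, with at most 4.31 units at E15.5. The fibrillar chain Col5a2, with 7.15 units at P14 and 0 reads at P56, was not called by limma, while edgeR called it lower in P56 against P14.

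The 12 collagen genes that did not pass the filter had 2 to 20 reads in all libraries together and peaked at 0.385 to 3.03 units. They were Col6a5, Col6a6, Col8a1, Col8a2, Col9a2, Col14a1, Col16a1, Col19a1, Col20a1, Col22a1, Col24a1 and Col26a1. They were left out of the tests, and with so few reads only large differences could be seen. Col6a5, a chain of type VI collagen chosen after its values were seen, had 11 reads at P14 and 0 in both E18.5 libraries, at least 5.30-fold higher in P14 than in E18.5 by counting alone. Of the 40 genes, 15 had reads in every library and 12 reached 50 units in at least 1 library, 7 of them basement membrane chains.

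Between the early stages, with 1 library each, differences were described by size alone. Of the 28 collagen genes tested elsewhere, 12 were at least 2-fold higher on the log2(value + 1) scale in the E15.5 library than in the E13.5 library and 2 at least 2-fold lower, where 13.4% of all genes were higher and 8.18% lower by that rule. The higher ones included Col13a1, Col4a3, Col6a2, Col15a1, Col3a1, Col1a1 and Col1a2, with log2 changes between 2.40 and 3.68. Of these, Col4a3 and Col6a2 had at most 2 reads at E13.5, so that their ratios of 32.6 and 48.6 have 95% counting intervals of 8.50 to 278 and 8.12 to 1978. The 2 lower ones were Col2a1 and Col11a2, with log2 changes of -3.74 and -1.24. Col4a1, Col4a2 and Col18a1 differed by less than 2-fold.

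Other genes of collagen assembly and of the basement membrane were read from lists of known roles. In P56 against E18.5 the median log2 change was -0.56 over modifying and folding genes and -1.70 over processing and crosslinking genes. It was -2.2 over other basement membrane components, -0.68 over receptors and hemidesmosome genes and -1.68 over genes of collagen breakdown. The median over all genes tested was 0.06. Of 18 tested genes that modify or fold collagen chains, 2 were higher and 3 lower in E18.5 against the early stages. In P56 against E18.5, 3 were lower and the other 15 were not called. Over all genes tested, 15.8% were higher and 13.4% lower in the first comparison, and 8.07% and 6.15% in the second. P4ha1, a catalytic subunit of prolyl 4-hydroxylase, had 138 units at E13.5, 268 at E15.5, then 771 and 817 in the E18.5 libraries, 1398 at P14, and 1116 and 1156 in the P56 libraries, highest in the postnatal libraries. Plod2, a lysyl hydroxylase, had 64.3 and 66.7 units at E13.5 and E15.5, then 23.9 and 22.6 in the E18.5 libraries, 31.6 at P14, and 2.56 and 1.62 in the P56 libraries, and it fell in E18.5 against the early stages and in P56 against E18.5 (log2 change -2.99 ± 0.30, adjusted p = 0.0011). P4ha3, another hydroxylase gene, and P3h4 were the other genes of this list lower in P56 against E18.5. Serpinh1, which encodes the collagen chaperone Hsp47, was lower in E18.5 against the early stages (log2 change -0.73 ± 0.23, adjusted p = 0.0487).

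Of 5 tested genes that process or crosslink collagen, 3 were called higher in E18.5 against the early stages, which were Lox, Pcolce and Pxdn. Pxdn, Lox and Pcolce were lower in P56 against E18.5. The shares over all genes tested were 15.8% higher and 13.4% lower in the first comparison, and 8.07% and 6.15% in the second. Pxdn, which encodes the peroxidasin that crosslinks the type IV network, had 26.2 units at E13.5, 10.8 at E15.5, then 58.1 and 86.7 in the E18.5 libraries, 12.1 at P14, and no reads at P56, which makes P56 at least 159.7-fold lower than E18.5. Lox, a lysyl oxidase that crosslinks collagen and elastin fibres, had 8.03 units at E13.5, 166 at E15.5, then 194 and 261 in the E18.5 libraries, 207 at P14, and 3.41 and 6.15 in the P56 libraries. Its log2 change was -5.33 ± 0.31 in P56 against E18.5 and -5.21 ± 0.38 in P56 against P14. Pcolce, an enhancer of procollagen processing, was lower in P56 than in E18.5 with a log2 change of -1.70 ± 0.28 (adjusted p = 0.00824).

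Of 22 other basement membrane components, 8 were higher and 5 lower in E18.5 against the early stages, 1 was higher and 15 lower in P56 against E18.5, and 6 were lower in P56 against P14 with the other 16 not called. The shares over all genes tested were 15.8% and 13.4%, 8.07% and 6.15%, and 0.694% lower in P56 against P14. The laminin chain gene Lamb1 had 171 and 159 units at E13.5 and E15.5, then 80.9 and 87.4 in the E18.5 libraries, 31.1 at P14, and 2.56 and 0.324 in the P56 libraries. Hspg2, which encodes perlecan, had 28.4 and 23.3 units at E13.5 and E15.5, then 40.4 and 49.0 in the E18.5 libraries, 24.5 at P14, and 1.99 and 1.62 in the P56 libraries. Sparc, a matrix protein that binds collagen IV, had 4918 units at E13.5, 5354 at E15.5, then 6842 and 7811 in the E18.5 libraries, 18109 at P14, and 2593 and 3289 in the P56 libraries. It was higher in P14 than in E18.5 (log2 change 1.31 ± 0.22, adjusted p = 0.0284). Fbln1 and Lama1 were lower in E18.5 against the early stages, with 4.24 and 0.754 units of Fbln1 at E18.5 and 143 and 85.8 at E13.5 and E15.5. Smoc2 was the component that was higher in P56 than in E18.5 (log2 change 0.85 ± 0.22, adjusted p = 0.0405).

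Of 11 tested receptors and hemidesmosome genes, 5 were higher and 1 lower in E18.5 against the early stages, and 2 were higher and 5 lower in P56 against E18.5, beside the same shares of all genes (15.8% and 13.4%, then 8.07% and 6.15%). The 2 higher were Cd151, a tetraspanin that binds laminin-receptor integrins, and Dst, which encodes the hemidesmosome protein BPAG1. Cd151 had 116 and 72.5 units at E13.5 and E15.5, then 61.2 and 51.6 in the E18.5 libraries, 293 at P14, and 201 and 164 in the P56 libraries. Itga6, the alpha chain of a laminin receptor, was lower in P56 than in E18.5 (log2 change -2.35 ± 0.24, adjusted p = 0.00115), as was the collagen receptor Ddr1 (log2 change -1.93 ± 0.37, adjusted p = 0.0146). Of 5 tested genes of collagen breakdown, Mmp14, a membrane-bound protease, had 514 units at E13.5, 1303 at E15.5, then 1728 and 2013 in the E18.5 libraries, 678 at P14, and 198 and 162 in the P56 libraries. Mmp14 fell in P56 against E18.5 (log2 change -3.37 ± 0.19, adjusted p = 0.000115), with the inhibitor Timp3 (log2 change -2.19 ± 0.19) and the collagen uptake receptor Mrc2, while Mmp15, a related protease, was higher (log2 change 3.46 ± 0.57, adjusted p = 0.00855).

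The genes whose course over the 7 libraries was most like that of a collagen chain were named as a description. For Col4a2 they included Limch1 and Col4a4, with Pearson correlations of log2(value + 1) of 0.979 and 0.970. For Col4a1 they were Sdpr, a caveola protein gene, Usp13 and Fam46b, with correlations of 0.993, 0.988 and 0.988. For Col18a1 they were Ptbp1, LOC102642689 and Topbp1, with correlations of 0.996, 0.994 and 0.990, and for Col1a1 Lmo1, Adamts9 and Zfp266, with 0.988, 0.986 and 0.984. The 7 points share libraries and stages, and Usp13 and Lmo1 stayed below 9 units.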

How the data were processed

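Per the labels' protocols, polyadenylated RNA of the sorted cells was amplified before 3' SAGE libraries were sequenced (Ion Proton). Each deposited value is a signal: the authors had divided a gene's tag count by a factor common to its library, as every value is a whole multiple of the column's smallest step within 0.01 reads. The submitters' processing notes name Bowtie2 2.2.5, R 3.4.0 and mm10. The counting program, strand setting, annotation and scaling method are not given in the sources used here. Every listed gene has at least 1 read in some library.

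Depth was 2559927 to 3895740 reads per library. The recovered reads went through filterByExpr by stage, which left 12964 genes. These were tested with robust limma-trend (limma 3.58.1) on log2(value + 1), in 1 model of the 7 libraries with a coefficient per stage and 2 residual degrees of freedom. Stages with 1 library were assumed to vary like the replicated ones. The pseudocount of 1 understates changes of genes with few reads. Ratios without it are of reads summed over a stage per summed scaled depth. Their exact 95% intervals and the floor of 3 reads over a stage cover counting error only. edgeR 4.0.16 quasi-likelihood tests on the recovered reads, which were whole for 100% of values, called 2318 genes higher and 1676 lower in E18.5 against the early stages, and 1074 and 1023 in P56 against E18.5. Fits were tested on simulated data. Other versions were R 4.3.3, Python 3.11.15, pandas 2.3.3, scipy 1.17.1 and matplotlib 3.10.9.

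The chains, classes, related lists and markers were chosen with earlier results of these data known. Collagen genes are given in full where they reached 50 units in any library or were called in any of the 4 tested comparisons, which were 25. From each related list up to 3 members per direction and comparison were named, those called with the largest log2 change, and not all of them are printed. For 4 chains the 3 genes with the highest Pearson correlation over the libraries were named, of which 1 is not reported here.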

Additional observations from a re-analysis of the deposited data

How the results depend on the processing

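Of the 41 calls of single collagen genes in the 4 tested comparisons, edgeR on the recovered reads, TMM scaling and library total scaling each kept 41, a pseudocount of 0.5 kept 40, a pseudocount of 5 kept 39, fits without robust variance estimates kept 27 and fits with no filter on low values kept 16. Library total scaling moved the median of all genes from 0.03 to -0.11 in E18.5 against the early stages. Over all of these alternatives, the replicate block, either early stage alone and edgeR without each E18.5 and P56 library, 13 calls were kept throughout. Some counts of calls moved. With no filter on low values, 0 were higher and 5 lower in P56 against E18.5, beside 355 and 324 of 21121 genes. In P14 against E18.5 that fit had 4 higher and 1 lower, beside 816 and 235 of 21121 genes. In P14 against E18.5, 1 was lower with a pseudocount of 5 and 4 with edgeR, against 2 in the main fit. Over all genes tested these fits had 172, 276 and 161 lower, in the same order. Without robust variance estimates 0 were higher and 0 lower in P14 against E18.5, beside 3 and 3 of all genes tested. In P56 against P14 that fit had 0 lower, beside 0 of all genes tested. The cause was not tested.

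Replicate numbers of E18.5 and P56 did not pair the libraries (correlation of their differences 0.00982), so the block shares only a number. With the replicate block, 26 of the 41 calls were kept. That fit had 1 collagen gene higher in P56 against E18.5, beside 479 of all genes tested. In P14 against E18.5 it had 0 higher and 0 lower, beside 7 and 9 of all genes tested. In P56 against P14 it had 0 lower, beside 0 of all genes tested.

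Limma without a library left 1 residual degree of freedom and called 0 collagen genes in every comparison, and 0 genes of the whole table. At an unadjusted p under 0.05 it had 2106 to 2479 genes higher in E18.5 against the early stages. Each E18.5 and P56 library was left out in turn with both tools, while the single E13.5, E15.5 and P14 libraries were always kept. In the ranges that follow, every low end of 0 is that of limma and not of edgeR. The counts were 0 to 11 higher and 0 to 9 lower in E18.5 against the early stages. They were 0 to 3 higher and 0 to 16 lower in P56 against E18.5. They were 0 to 3 higher and 0 to 5 lower in P14 against E18.5, and 0 to 10 lower in P56 against P14. There edgeR had 7 lower with all libraries and 10 without either E18.5 library. In edgeR alone 163 of 164 such calls were kept, and the exception was Col12a1 in P56 against E18.5 without P56 replicate 1. Against E15.5 alone, 2 changes that were not called turned round, -0.24 for Col13a1 and -0.21 for Col1a1. Depth limits the genes under about 5 units, of which 14 of the 40 collagen genes never rose above.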
